A study of Sus scrofa with 9 samples.

Results

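Gene expression in additional molar germs of the Wuzhishan miniature pig was compared between the bell stage at E60 and the cap stage at E50, with 3 arrays at each stage, which are 6 of the 9 arrays of the series. The additional molars are the permanent molars that form behind the milk molars and replace no earlier tooth. At E50 the germ of the first molar was at the cap stage and the germ behind it had not started, and at E60 the first molar was at the bell stage and the next germ had started. No treatment or genotype is given for either stage, all animals were of this breed, and the germs were dissected from the lower jaw with the dental lamina attached. RNA of germs of the same stage and litter was pooled, whether the 3 arrays of a stage stand for separate litters is not stated, and every p-value therefore measures only the spread between these arrays. In such tissue RNA, fewer cells of a type and less RNA per cell cannot be told apart.

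At the cap stage the dental epithelium grows over a condensed papilla of neural crest mesenchyme, and the enamel knot, a signalling centre in the epithelium, releases SHH, BMP, FGF and WNT ligands. At the bell stage the enamel organ has separate layers, papilla cells that face the inner enamel epithelium prepare to become odontoblasts, and the follicle around the germ lays down a fibrous matrix. The alveolar bone that will hold the tooth forms at its outer face.

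The arrays measured 23999 probe sets after the AFFX controls were set aside, and the symbols of 10069 of them named 6765 genes. A gene is called well measured here when its brightest probe set lay above background on all 6 arrays and when no other probe set above background on all 6 arrays changed the other way. Background was the 95th percentile of the controls for foreign tags and bacterial Trp genes on the same array. By this rule 3588 genes were well measured, and counts of genes below are over them unless stated otherwise. Background was higher on the E50 arrays, so the rule asks for a higher signal there than at E60.

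The E50 and E60 arrays differed in RNA quality controls and in background, and the controls of 1 transcript show how far this reaches. EF1A, a translation elongation factor, is measured on the array at the 3' end and at the 5' end of its transcript. Its 3' probe set read 265543, 263918 and 280189 at E50 and 83374, 86692 and 89516 at E60. Its 5' probe set read 5392, 5168 and 5019 at E50 and 53381, 61232 and 61060.2 at E60. The 3' end was thus lower at E60 and the 5' end of the same transcript was higher, with no overlap between the stages for either end, and the geometric mean ratio of 3' to 5' was 52.0 at E50 and 1.48 at E60. Beta-actin and GAPDH had the same order, with 3' signals of 108762, 96678 and 88176 at E50 and 42179, 45486 and 44206 at E60 for beta-actin and 5' signals of 47.1, 47.4 and 536 at E50 and 1357, 1303 and 1471 at E60. Background was 248, 77.7 and 379 at E50 and 37.9, 52.7 and 54.4 at E60. The spike-ins, bacterial and phage transcripts added to every hybridisation, had geometric mean signals of 58370.3, 65745 and 66123 at E50 and 4265, 4268 and 4149.5 at E60. The stages did not overlap, the E50 signals were more than 10 times those at E60, and the part of this gap in the changes below was not tested. Each of these controls had an exact permutation p of 0.1, two-sided, the smallest that 3 against 3 arrays allow. The stage of an array and its 3' bias cannot be told apart in these data.

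**Figure D1:**
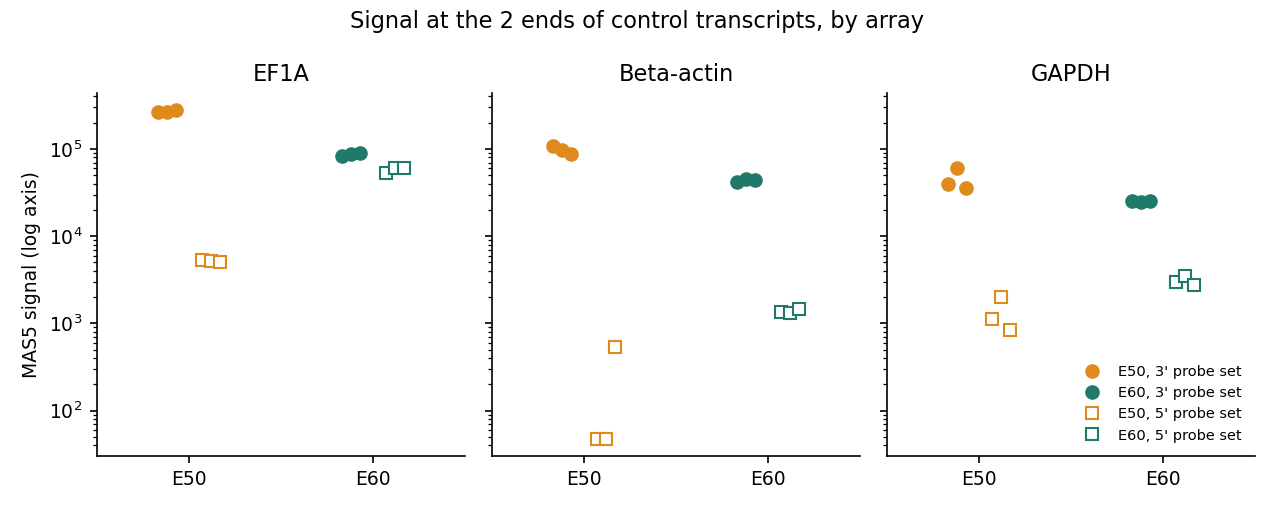
Signal of the probe sets at the 3' end (filled circles) and the 5' end (open squares) of the EF1A, beta-actin and GAPDH control transcripts on each of the 3 E50 and 3 E60 arrays, on a log axis. For each transcript the 3' signal is lower and the 5' signal higher at E60, so that the EF1A ends, 52.0 times apart at E50, lie close together at E60.

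Between E50 and E60, 131 of the 3588 well-measured genes (3.65%) rose and 352 (9.81%) fell by limma with Benjamini-Hochberg adjustment over all probe sets. The rises included genes of bone and follicle matrix (IBSP, POSTN, ASPN and LUM) and genes of RNA splicing (among them SF3B1, CLK1 and SRSF11). The falls included ribosomal proteins, subunits of the respiratory chain, skeletal muscle genes, and SCRG1 and MBP, which had the largest changes of all called well-measured genes. Over all probe sets 859 (3.58%) were called higher and 1228 (5.12%) lower, and over all genes 215 (3.18%) and 457 (6.76%). Without regard to the test, 800 well-measured genes (22.3%) had every E60 array above every E50 array and 1431 (39.9%) had every E60 array below. The median change was -0.24 on the log2 scale over well-measured genes and -0.19 over all genes. Leaving out any E60 array (replicate 1, 2 or 3) left 0 calls by limma in either direction, with 4703 to 4800 probe sets at an unadjusted p under 0.05, against 6870 with all 6 arrays.

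The direction of the calls depended on how the arrays were brought to a common scale. Rises made up 41.2% of the called probe sets on the deposited scale, 43.1% when arrays were centred on the 75th percentile, 50.4% after quantile normalization and 84.6% when arrays were centred on the median. The middle of the distribution over probe sets moved by 0.04, 0.17 and 0.77 under these scalings, in that order. A call that kept its direction and significance under all 3 scalings is called held below, and 46 rises and 38 falls of well-measured genes were held.

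Change also went with signal. When the well-measured genes were ordered by mean signal and divided into 10 equal groups, the median change was -1.29 in the dimmest group, 0.02 in the group from 949.9 to 1194, 0.14 in the group from 1579 to 2295, and -0.48 in the brightest. The dimmest group held 92 of the 352 falls and 0 rises, and the brightest held 100 falls and 13 rises. A well-measured gene had to exceed a background of 77.7 to 379 at E50 but of 37.9 to 54.4 at E60. Genes dim at E50 thus tended to be left out, so the rule itself lowers the count of rises, most of all among dim genes. Falls of dim genes moved with the higher background of the E50 arrays, and its part in them was not tested. For the falls named below, the signal at E60 is therefore given in multiples of background where it is below 5 times background.

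**Figure D2:**
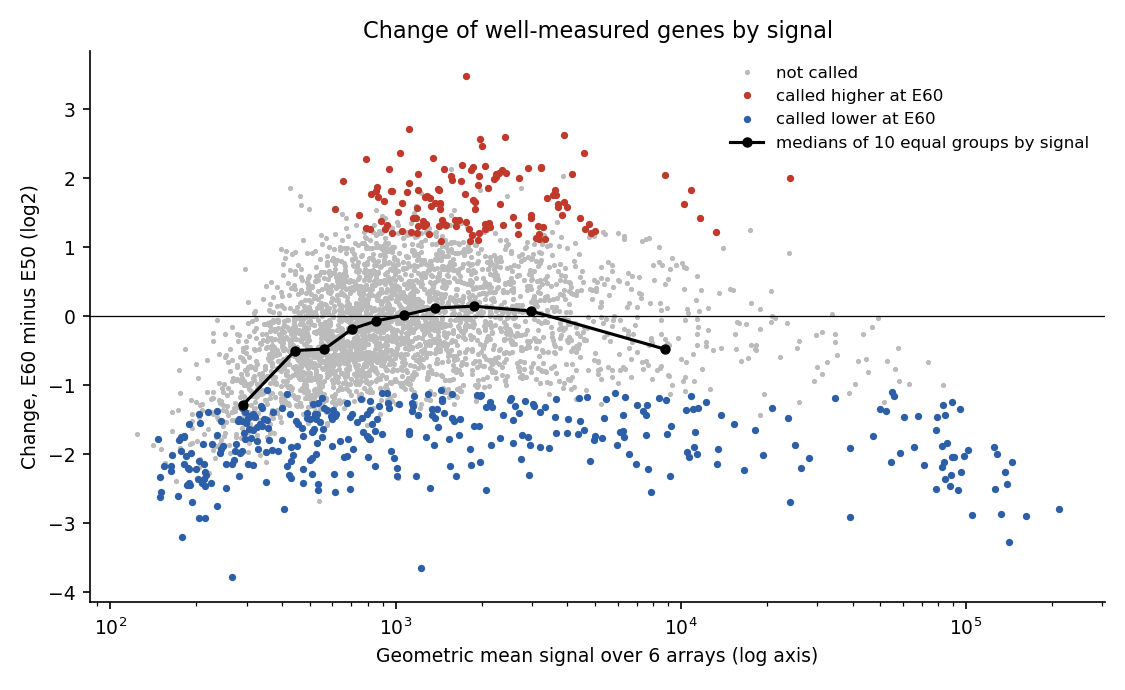
Log2 change from E50 to E60 of the 3588 well-measured genes (vertical axis) against their geometric mean signal over the 6 arrays (log axis). Red and blue points are genes called higher and lower at E60, grey points are not called, and the black line joins the medians of 10 equal groups by signal, which run from -1.29 at the dim end over 0.14 to -0.48 at the bright end.

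Probe sets of 1 gene offered a check within the arrays. For 446 genes, 2 or more probe sets lay above background on all 6 arrays, and for 151 of these (33.9%) they changed in opposite directions. Among 23 such genes whose brightest probe set rose, the others also changed upwards in 18 and all were called in 4, with a median change of 1.56 for the brightest and 1.04 for the next. Among 40 whose brightest probe set fell, the others changed downwards in 33 and all were called in 10, with medians of -1.95 and -0.87. The 4 genes with every such probe set called upwards were SRSF11, RBM39, DDX1 and C14H10orf99. The falls of this kind included RPS18, RPL27, RPL38, RPS28 and SNRPG. Dimmer probe sets were also compared, whether or not they lay above background. Among 150 called genes considered for naming, 57 had a further probe set of any signal, and in 17 of them a further probe set changed the other way. In 4 (CLTC, COX7C, ATP5L and MRPL52) that probe set was itself called, with 3 to 5 arrays above background.

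**Figure D3:**
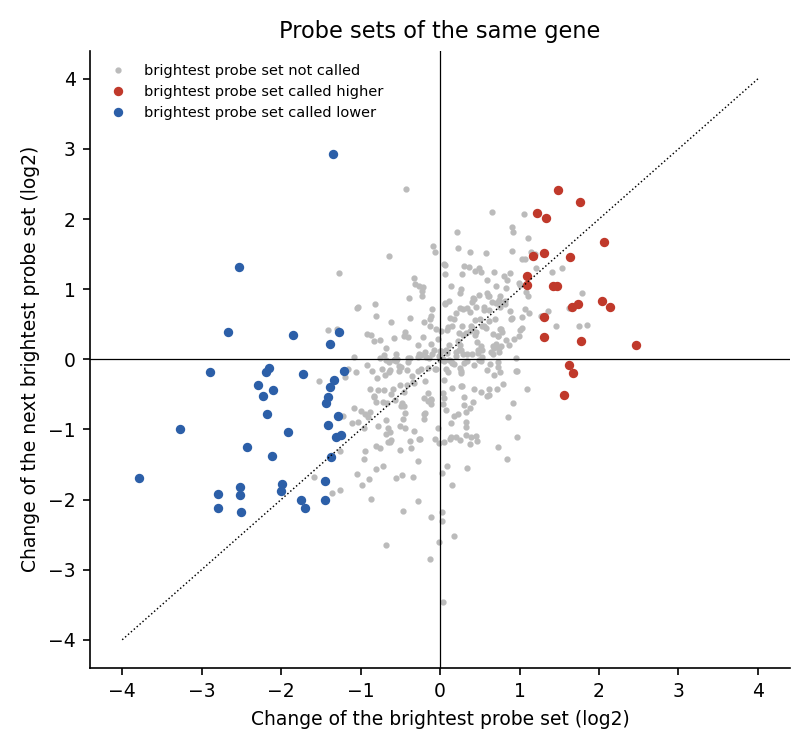
Log2 change of the brightest probe set of a gene (horizontal axis) against that of its next brightest probe set (vertical axis), for 446 genes with 2 or more probe sets above background on all 6 arrays. Points in the upper left and lower right quadrants are among the 151 genes whose probe sets disagree, and the dotted line marks equal change.

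Among the matrix genes of bone and follicle, IBSP had the largest rise. IBSP encodes bone sialoprotein, a phosphoprotein of newly mineralising bone, cementum and dentin. Its signal was 2100.4, 1626 and 2385 at E50 and 9837, 10896 and 10485 at E60. The E60 arrays were close together and far above the E50 arrays, and the gene rose 5.17-fold, by 2.37 on the log2 scale (SE 0.27, adjusted p = 0.0199). POSTN, the periostin gene of the dental follicle and periodontal ligament, read 4398, 4616 and 4007 at E50 and 17023, 19035 and 17693 at E60. It rose by 2.05 (SE 0.23, adjusted p = 0.0200), and a dimmer probe set of the gene gave a change of 2.22 that did not pass (adjusted p = 0.141). ASPN encodes asporin, a small leucine-rich proteoglycan of ligament and dental papilla, and its signal was 7157, 5651 and 4659 at E50 and 19694, 20489.8 and 21059 at E60, a rise of 1.83 (SE 0.27, adjusted p = 0.0288). LUM, lumican, which binds collagen fibrils, read 8081, 7297 and 6148 at E50 and 22685, 17634 and 17486 at E60 and rose by 1.42 (SE 0.27, adjusted p = 0.0413). In each of these 4 genes all E60 arrays lay above all E50 arrays, and all 4 rises were held.

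The lists as a whole did not move in 1 direction. Of 23 well-measured members of the follicle and mesenchyme matrix list 3 rose and 2 fell, with a median of -0.13, and of 9 members of the dentin and bone mineral list 1 rose and 3 fell, with a median of -0.34. MGP, matrix Gla protein, an inhibitor of mineralisation, read 47779, 42732 and 28935 at E50 and 9069, 10068 and 9954 at E60 and fell by 2.01 (SE 0.29, adjusted p = 0.0285). SPARC, osteonectin, read 163345, 166256 and 126676 at E50 and 57200.1, 60805 and 60962 at E60 and fell by 1.34 (SE 0.25, adjusted p = 0.0412), but after quantile normalization its change was 0.58 (adjusted p = 0.205), in the other direction. BGN, the proteoglycan biglycan, fell by 1.40 (SE 0.25, adjusted p = 0.0385). THY1, a surface protein of fibroblasts, read 7445, 5879 and 6889 at E50 and 1839, 1527 and 2019 at E60 and fell by 1.91 (SE 0.26, adjusted p = 0.0255). Its other probe set above background on all arrays gave -1.04 (adjusted p = 0.0860). MFAP5, a microfibril glycoprotein, fell by 2.00 (SE 0.30, adjusted p = 0.0292), and MMP2, a gelatinase, fell by 1.47 (SE 0.28, adjusted p = 0.0420). None of these 6 falls was held under all 3 scalings. SPP1, the osteopontin gene, had a change of -0.02 (adjusted p = 0.958), DCN, decorin, -0.03 (adjusted p = 0.945), and LOX, which crosslinks collagen, 0.92 (adjusted p = 0.0804). Of 11 well-measured collagens, laminins and nidogens and of 12 collagen folding and crosslinking enzymes, 0 were called in either direction by limma, with medians of -0.07 and -0.61.

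Of 71 well-measured splicing factors 10 (14.1%) rose and 3 (4.23%) fell, with a median change of 0.22, against 3.65%, 9.81% and -0.24 for all well-measured genes. Their median was 0.31 after quantile normalization and 1.00 after median centring, where those of all well-measured genes were -0.24 and 0.54. SF3B1, a core subunit of the U2 particle that recognises the branch point, read 2037, 1854 and 1015 at E50 and 9563, 9409.9 and 10103 at E60. All E60 arrays were above all E50 arrays, of which replicate 3 was the lowest, and the gene rose 6.19-fold, by 2.63 on the log2 scale (SE 0.35, adjusted p = 0.0252). A dimmer probe set of SF3B1, above background on 5 arrays, gave -0.64 (adjusted p = 0.629). SRSF11, a serine- and arginine-rich splicing regulator, read 1955, 2023 and 2100.2 at E50 and 8855, 7759.8 and 8800.0 at E60 and rose by 2.06 (SE 0.23, adjusted p = 0.0199). Its other 2 probe sets above background on all arrays rose by 2.15 and 1.67. RBM39, a coactivator of splicing, read 2089, 2158 and 1749 at E50 and 6877, 6853 and 6485 at E60 and rose by 1.76 (SE 0.24, adjusted p = 0.0253), with 2.25 for its other probe set. TRA2A, which binds splicing enhancers, read 716, 862 and 1092 at E50 and 3426, 4084 and 3995 at E60 and rose by 2.12 (SE 0.28, adjusted p = 0.0244). In each of these 4 genes all E60 arrays lay above all E50 arrays.

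Several genes outside the list that act on nuclear RNA were named because their rises were large, so their direction adds nothing to that of the list. CLK1, a kinase that phosphorylates serine- and arginine-rich splicing factors, read 798, 824 and 816 at E50 and 4813, 4641 and 5021 at E60 and rose 5.93-fold, by 2.57 (SE 0.22, adjusted p = 0.0159). Its E50 arrays lay close together, and no array of either stage was between the groups. The related kinase CLK4, chosen after its values were seen, rose by 1.67 (SE 0.25, adjusted p = 0.0289). ZRANB2, a zinc finger protein of the spliceosome, read 899.8, 960.3 and 1095 at E50 and 5891, 5723 and 6228 at E60 and rose by 2.60 (SE 0.24, adjusted p = 0.0166). MATR3, the nuclear matrix protein matrin 3, read 1562, 1518 and 1512 at E50 and 6865, 6745 and 6826 at E60 and rose by 2.15 (SE 0.22, adjusted p = 0.0184). ZC3H14, which binds poly(A) tails, rose by 2.29 (SE 0.28, adjusted p = 0.0222), and RBM26, an RNA-binding zinc finger protein, by 2.47 (SE 0.29, adjusted p = 0.0209), although the other well-measured probe set of RBM26 gave 0.20 (adjusted p = 0.706). Of the genes named in this and the preceding paragraph as rising, all were held. ARGLU1, U2SURP, NCBP2 and PPIG, which also act on nuclear RNA and were also chosen after their values were seen, rose by between 1.75 and 1.95 and were held. The other probe set of U2SURP above background on all arrays gave 0.26 (adjusted p = 0.558). A dimmer probe set of PPIG gave -0.38 (adjusted p = 0.687), and 2 dimmer ones of ARGLU1 gave 2.87 and 3.04, neither called.

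LUC7L3, a protein of the U1 particle, had the largest fitted rise of any well-measured gene but rested on uneven E50 arrays. It read 756, 230.1 and 856 at E50 and 5812, 6210.0 and 5747 at E60. Replicate 2 of E50 was the lowest array by far, and the rise of 3.48 (SE 0.57, adjusted p = 0.0338) was not held. PRPF39, another U1 protein, had the same E50 array lowest, with 748, 229.7 and 558 at E50 and 2305, 2579 and 2216 at E60, and rose by 2.37 (SE 0.50, adjusted p = 0.0495), also not held. SNRPG, SNRPD3 and SF3B4 were the splicing genes that fell. SNRPG, a ring protein of the spliceosomal particles, read 19207, 21306 and 29239 at E50 and 6123, 4829 and 6317 at E60 and fell by 2.00 (SE 0.29, adjusted p = 0.0285), with a fall of 1.88 in its other probe set. SNRPD3 of the same ring fell by 1.17 (SE 0.23, adjusted p = 0.0442). SF3B4, which acts in the same U2 complex as SF3B1, read 978, 824 and 861 at E50 and 206, 166 and 220.4 at E60 and fell by 2.17 (SE 0.25, adjusted p = 0.0212), at 4.11 times background at E60, and was held.

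**Figure D4:**
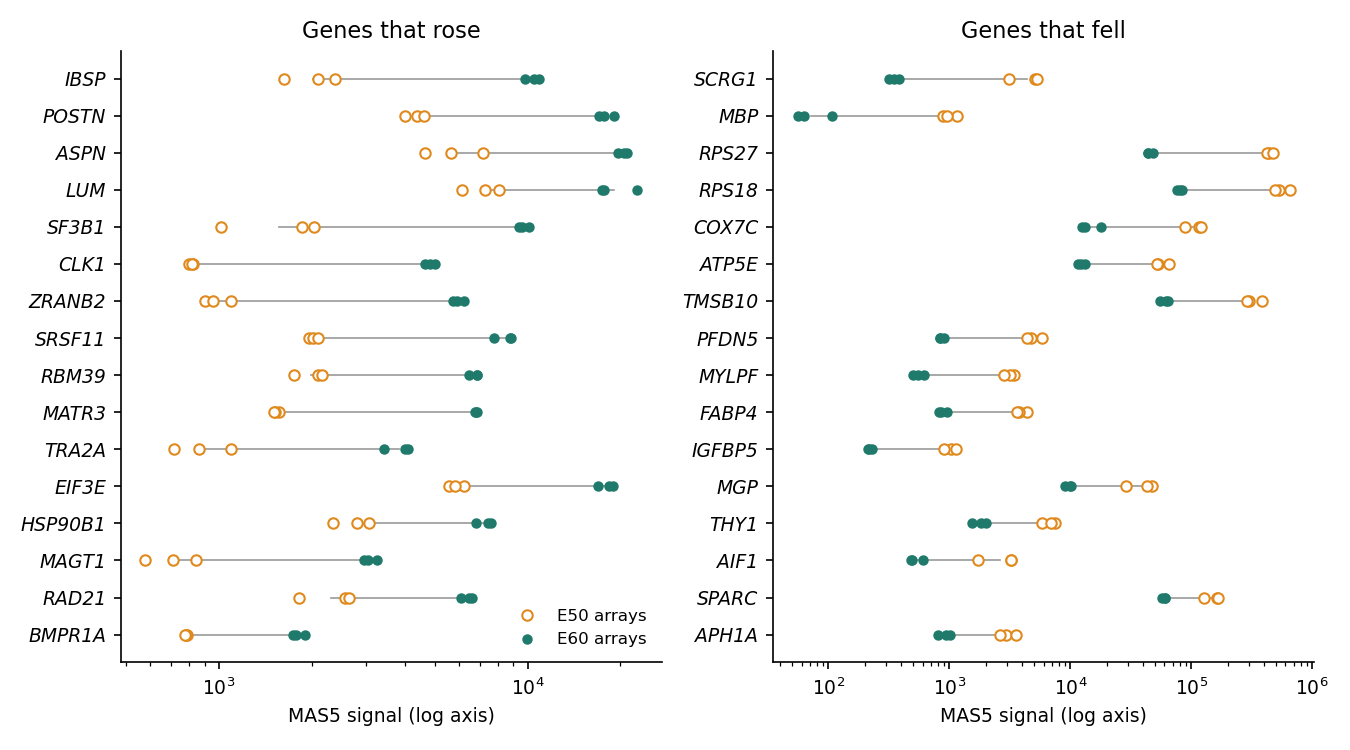
MAS5 signal on each of the 3 E50 arrays (open circles) and 3 E60 arrays (filled circles) for 16 genes that rose and 16 that fell, on log axes; grey lines join the geometric means of the stages. In every gene shown the stages do not overlap, from MBP, near background at E60, to RPS18, whose lowest E60 array read 76094.

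A few translation factors rose. Among the 46 well-measured genes of this kind, tRNA ligases included, 4 (8.70%) rose and 0 fell, with a median of 0.26. EIF3E, a subunit of the initiation factor that loads the small ribosomal subunit, read 5573, 6247 and 5808 at E50 and 18944, 16897 and 18419 at E60 and rose by 1.62 (SE 0.23, adjusted p = 0.0274), a held rise. EIF1AX, which helps to find the start codon, rose by 1.17 (SE 0.25, adjusted p = 0.0492), and its other probe set gave 1.47 (adjusted p = 0.0549). EIF1AY, its counterpart on the Y chromosome, read 288, 254 and 498 at E50 and 1310.1, 1269.9 and 1296 at E60 and rose by 1.96 (SE 0.34, adjusted p = 0.0373). The 2 genes are near-identical copies that may share labelled RNA, and the sexes in the pools are not given in the sources used here, so the rise of EIF1AY is uncertain. NARS, the asparagine tRNA ligase, rose by 1.34 (SE 0.27, adjusted p = 0.0455).

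Of 59 well-measured cytosolic ribosomal proteins 37 (62.7%) fell and 0 rose on the deposited scale, with a median of -1.43, the lowest median of the lists with over 20 well-measured members. After quantile normalization the median of the same genes was -0.13 and 1 of them was called lower, and after median centring the median was -0.66, so that the size of this shift depended on the scaling. RPS27 of the small subunit read 436888, 418528 and 469840 at E50 and 44189.8, 44274 and 48251 at E60. Its E60 arrays agreed closely and lay far below the E50 arrays, and the gene fell 9.69-fold, by 3.28 on the log2 scale (SE 0.23, adjusted p = 0.0121), while its other probe set did not pass (adjusted p = 0.0999). RPS18 read 533584, 496573 and 648522 at E50 and 76094, 80190.4 and 84569 at E60 and fell by 2.79 (SE 0.25, adjusted p = 0.0159), and its other 2 probe sets fell by 1.92 and 2.50. RPL38 and RPL27 of the large subunit fell by 2.52 and 2.50, each with its other bright probe set also called. Other members, chosen after their values were seen, had less agreement. RPL24, RPL23 and RPS25 had changes of -2.29, -2.11 and -2.19, but -0.36, -0.43 and -0.18 on their next brightest probe sets. RPS27A, not well measured, had -2.53 on its brightest probe set and 1.31 on the next (adjusted p = 0.0410). No fall in this list was held, and for RPLP0, a stalk protein often used as a reference gene, the fall of 1.28 turned into a change of 0.50 in the other direction after quantile normalization (adjusted p = 0.27). On the deposited scale the other probe set of RPLP0 above background on all arrays gave -0.81 (adjusted p = 0.178). Transcripts of this list are among the brightest on the arrays, where falls were frequent in general.

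Of 47 well-measured ribosomal proteins of the mitochondrion 8 (17.0%) fell and 0 rose, with a median of -0.54, and MRPL30 and MRPL17 had falls of 1.89 and 1.84. Of 56 well-measured oxidative phosphorylation genes 18 (32.1%) fell and 0 rose, with a median of -0.63, and 5 of these falls were held. After median centring the medians of these mitochondrial lists turned to 0.24 and 0.14, below the 0.54 of all well-measured genes, and after quantile normalization they were -0.65 and -0.68. COX7C, a small subunit of cytochrome c oxidase, read 116222, 120936 and 88652 at E50 and 17876, 13252 and 12523 at E60. All E60 arrays lay below all E50 arrays, and COX7C fell 7.49-fold, by 2.90 on the log2 scale (SE 0.29, adjusted p = 0.0174), while a dimmer probe set, above background on 3 arrays, rose by 3.23 (adjusted p = 0.0274). ATP5E and ATP5L, small subunits of ATP synthase, fell by 2.20 (SE 0.24, adjusted p = 0.0199) and by 2.23 (SE 0.25, adjusted p = 0.0199), and a dimmer probe set of ATP5L rose by 1.63 (adjusted p = 0.0420). A further probe set of ATP5L, above background on all arrays, gave -0.52 (adjusted p = 0.322). NDUFB1 of complex I fell by 2.22 (SE 0.24, adjusted p = 0.0195). USMG5, a further small protein of ATP synthase, read 68118, 71839 and 46695 at E50 and 9819, 8352 and 10338 at E60 and fell by 2.69 (SE 0.29, adjusted p = 0.0191), and TOMM7, of the pore through which proteins enter mitochondria and chosen after its values were seen, fell by 2.15 (SE 0.23, adjusted p = 0.0195). In contrast DLD, an enzyme subunit shared by the pyruvate and oxoglutarate dehydrogenases, read 1004, 1014 and 505 at E50 and 3718, 3296 and 3995 at E60 and rose by 2.19 (SE 0.37, adjusted p = 0.0361), without being held.

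Folding and secretory genes were divided. Of 61 well-measured chaperones and folding enzymes 5 (8.20%) rose and 4 (6.56%) fell, with a median of 0.12. HSP90B1, the HSP90 of the endoplasmic reticulum, read 3065, 2794 and 2334 at E50 and 7592, 6792 and 7421 at E60 and rose by 1.42 (SE 0.25, adjusted p = 0.0375), and its other probe set gave 1.04 (adjusted p = 0.0915). HSPA13 rose by 2.71 (SE 0.42, adjusted p = 0.0309) from uneven E50 arrays, and FKBP3, a nuclear prolyl isomerase, by 2.07 (SE 0.32, adjusted p = 0.0307). PFDN5, a prefoldin subunit that hands actin and tubulin chains to the chaperonin, read 4743, 5849 and 4404 at E50 and 909.7, 839 and 838 at E60 and fell by 2.53 (SE 0.25, adjusted p = 0.0174), a held fall. HSPE1, the small partner of the mitochondrial chaperonin, fell by 2.05 (SE 0.28, adjusted p = 0.0253). At the translocon, the channel into the endoplasmic reticulum, SEC61B and SEC61G fell by 2.31 and 1.65 and the oligosaccharyltransferase subunit DAD1 by 1.36, while SEC62 and MAGT1 rose by 1.97 and 2.14. MAGT1, another subunit linked to oligosaccharyltransferase, read 709, 845 and 578 at E50 and 3050.5, 3259 and 2961 at E60, and its rise was held, while its other well-measured probe set gave 0.75 (adjusted p = 0.183).

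Of 79 well-measured Golgi and vesicle traffic genes 4 (5.06%) rose and 7 (8.86%) fell, with a median of -0.20, all near the values of all well-measured genes. CLTC, the clathrin heavy chain, rose by 1.30 (SE 0.26, adjusted p = 0.0462), while a dimmer probe set, above background on 5 arrays, fell by 1.89 (adjusted p = 0.0485). RAB18, SNX14 and VPS26A, which act in membrane traffic, rose by 1.42, 1.43 and 1.31. The other probe set of VPS26A above background on all arrays gave 0.60 (adjusted p = 0.315), and a dimmer one -0.90 (adjusted p = 0.619). AP1S1, a small subunit of the clathrin adaptor at the Golgi, read 809.6, 627 and 1025 at E50 and 154, 128 and 178 at E60 and fell by 2.40 (SE 0.31, adjusted p = 0.0235), to 3.19 times background, a held fall. ERGIC2, of the compartment between the endoplasmic reticulum and the Golgi, read 329.8, 342 and 409.6 at E50 and 1568, 2044 and 1635 at E60 and rose by 2.28 (SE 0.26, adjusted p = 0.0202). At E50 it lay only 1.85 times above background on average. SNAP23 and SCFD1, which act in vesicle fusion and were chosen after their values were seen, rose by 1.63 and 1.72 and were held.

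Of all well-measured genes 3.65% rose and 9.81% fell, with a median of -0.24. Among ubiquitin pathway enzymes 3 of 28 well-measured genes (10.7%) rose and 0 fell, with a median of 0.25. They were UBE2V2, a partner of ubiquitin-conjugating enzymes, which rose by 1.73 (SE 0.29, adjusted p = 0.0346), and UBA3 and UBA2, subunits of the enzymes that activate NEDD8 and SUMO, which rose by 1.39 and 1.12. Of 39 chromatin genes 2 (5.13%) rose and 0 fell, with a median of 0.33. Both act with cohesin, the ring that holds sister chromatids. RAD21, a cohesin subunit, read 2562, 2646 and 1819 at E50 and 6091, 6617 and 6469 at E60 and rose by 1.47 (SE 0.27, adjusted p = 0.0405), and NIPBL, which loads cohesin, read 610.4, 815 and 772 at E50 and 2689.6, 1963 and 2575 at E60 and rose by 1.72 (SE 0.28, adjusted p = 0.0333). In the cell cycle list 0 of 28 rose and 1 (3.57%) fell, with a median of -0.08. The fall was that of CKS1B, a small partner of cyclin-dependent kinases, at 1.49 (SE 0.25, adjusted p = 0.0345). CCNC, cyclin C of the Mediator complex, CCNG1, cyclin G1, and HAT1, a histone acetyltransferase, were outside these calls and were chosen after their values were seen. They rose by 2.03, 1.83 and 1.82, and all 3 rises were held. H2AFZ, the histone variant H2A.Z, fell by 1.86 (SE 0.25, adjusted p = 0.0251).

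In the cytoskeleton, TMSB10, thymosin beta 10, which binds free actin, read 301665, 288805 and 386568 at E50 and 54800.5, 62069.7 and 63602 at E60 and fell by 2.43 (SE 0.26, adjusted p = 0.0191). Its other probe set above background on all arrays gave -1.25 (adjusted p = 0.0866). ACTA2, smooth muscle actin, fell by 1.47 (SE 0.25, adjusted p = 0.0372), and TAGLN2 and RHOB fell by 1.47 and 1.14, while CAPZA2, a capping protein of actin filaments, rose by 2.12 (SE 0.37, adjusted p = 0.0372). Over the list of actin and myosin genes 1 of 42 (2.38%) rose and 4 (9.52%) fell, near the 3.65% and 9.81% of all well-measured genes. ANXA1 and ANXA4, annexins that bind membranes in the presence of calcium, rose by 1.46 (SE 0.28, adjusted p = 0.0428) and by 1.44 (SE 0.29, adjusted p = 0.0460). The calcium-binding S100A14, an epithelial protein, fell by 1.47 (SE 0.28, adjusted p = 0.0434). CXADR, a protein of epithelial junctions, read 509.7, 419 and 425 at E50 and 1201, 1234.2 and 1277 at E60 and rose by 1.46 (SE 0.24, adjusted p = 0.0333). Of 9 well-measured genes of epithelial identity 0 were called in either direction, with a median of 0.18, and the summed signal of the 22 measured genes was 15176, 17908 and 13402 at E50 and 17066, 17976 and 17558 at E60, so that the stages overlapped. CDH1, the E-cadherin gene, had a change of 0.06 (adjusted p = 0.919), EPCAM 0.60 (adjusted p = 0.298) and ESRP1, an epithelial splicing regulator, 1.05 (adjusted p = 0.162).

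Skeletal muscle genes, which mark cells of the jaw outside the germ, were lower at E60. Of 12 well-measured members 7 (58.3%) fell and 0 rose, with a median of -1.87. Of all well-measured genes 9.81% fell and 3.65% rose, with a median of -0.24. MYLPF, the fast myosin regulatory light chain, read 3415, 3175 and 2839 at E50 and 617, 504 and 553 at E60 and fell 5.63-fold, by 2.49 on the log2 scale (SE 0.24, adjusted p = 0.0174), with all E60 arrays below all E50 arrays. MYL1 and ACTC1, a myosin light chain and cardiac actin, fell by 1.66 (adjusted p = 0.0419) and 1.75 (adjusted p = 0.0375). MYOZ1, of the sarcomere's Z line, read 519.7, 382 and 576 at E50 and 75.7, 107 and 93.4 at E60 and fell by 2.42 (SE 0.30, adjusted p = 0.0222), to 1.91 times background at E60. The summed signal of the 33 measured members was 16907, 17625 and 14946 at E50 and 4674, 4625 and 4771 at E60, with no overlap. Such sums, here and for the lists below, include members that were not well measured. The part of the higher E50 background in them was not tested. The myogenic factors MYOD1 and MYF5 and the fast myosin MYH2 lay below background on all 6 arrays. How much muscle was dissected with the germs was not tested.

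Some nerve and glial genes also fell. SCRG1, a small secreted protein that rises in prion-infected brain and is also made by cartilage and mesenchymal cells, read 5081, 5309.7 and 3098 at E50 and 379.8, 347 and 317 at E60. The E60 arrays were close together and far below all E50 arrays, and SCRG1 fell 12.6-fold, by 3.66 on the log2 scale (SE 0.32, adjusted p = 0.0159), a held fall. MBP, the myelin basic protein of Schwann cells and oligodendrocytes, read 1149, 893 and 954 at E50 and 55.7, 108 and 62.3 at E60 and fell by 3.78 (SE 0.35, adjusted p = 0.0167). At E60 it lay at 1.51 times background on average, so the size of its fall depends on values near the floor of the arrays, and its other well-measured probe set gave -1.70 (adjusted p = 0.0773). Of the 5 well-measured nerve and Schwann cell genes, MBP, GFAP and S100B fell (60%), with a list median of -1.37, where 9.81% of all well-measured genes fell. GFAP lay at 2.05 times background at E60. S100B, a calcium-binding protein of glia and chondrocytes, read 1754, 1910.0 and 1830.5 at E50 and 663, 600.2 and 886 at E60 and fell by 1.37 (SE 0.27, adjusted p = 0.0434). UCHL1, a deubiquitinating enzyme of neurons, had a change of 0.98 (adjusted p = 0.0607). The summed signal of the 14 measured members was 7928, 8814 and 9537 at E50 and 3991, 4236 and 4270.4 at E60. In the cartilage list 0 of 2 well-measured genes were called, with COL2A1 at -1.39 (adjusted p = 0.114), and SOX10, the defining factor of Schwann cells, did not lie above background on all arrays of either stage.

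A few blood vessel and leukocyte genes fell. ENG, endoglin, a TGF-β coreceptor of endothelium, read 349, 521 and 857 at E50 and 48.4, 59.8 and 69.4 at E60 and fell by 3.20 (SE 0.41, adjusted p = 0.0242). Its E60 signal was 1.23 times background, and the call was held. LYVE1, of lymphatic vessels and some macrophages, fell by 1.62 (SE 0.29, adjusted p = 0.0382). A dimmer probe set of LYVE1, above background on 4 arrays, gave 1.65 (adjusted p = 0.406). The endothelial genes PECAM1 and CDH5 had changes of 0.17 (adjusted p = 0.681) and 0.26 (adjusted p = 0.575), and RGS5, of pericytes, 0.95 (adjusted p = 0.0734). Over 11 well-measured members 2 (18.2%) fell and 0 rose, where 9.81% of all well-measured genes fell. The summed signal of all 20 was 10490.5, 9886 and 12155 at E50 and 8552, 8846 and 8318 at E60. Of 9 well-measured macrophage and leukocyte genes 3 (33.3%) fell and 0 rose. AIF1, a calcium-binding protein of macrophages, read 3215, 3251 and 1716 at E50 and 492, 611 and 486 at E60 and fell by 2.31 (SE 0.36, adjusted p = 0.0304), and C1QC and TYROBP fell by 1.49 and 1.46, TYROBP to 4.06 times background. Over all 30 measured members 2 were called higher and 5 lower. The 2 were C1QA and LCP1, chosen after their values were seen, with changes of 3.09 and 2.35. Both lay below background on all E50 arrays and so could not be well measured. The leukocyte antigen PTPRC lay below background on all 6 arrays, and the list summed to 13788, 13251 and 12515 at E50 and 7531, 7341 and 7284 at E60. HBB, adult beta globin, read 961, 834 and 566 at E50 and 2596, 2091 and 2291 at E60 and rose by 1.59 (SE 0.31, adjusted p = 0.0431), while ALAS2, which starts haem synthesis in red cells, fell by 1.61 (SE 0.30, adjusted p = 0.0414), to 4.26 times background. FABP4, a fatty acid carrier of fat cells and capillaries, and SLPI, a secreted protease inhibitor of mucosa, were chosen after their values were seen. FABP4 read 4354, 3758 and 3605 at E50 and 823, 848 and 950.5 at E60 and fell by 2.16, and SLPI read 1805, 1685 and 1479 at E50 and 255, 317 and 302 at E60 and fell by 2.51, and both falls were held.

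In the insulin-like growth factor list 2 of 4 well-measured genes (50%) fell, where 9.81% of all well-measured genes fell. The list had 13 measured genes. IGFBP5, a binding protein for these factors, read 1029, 904 and 1135 at E50 and 231, 212 and 217 at E60 and fell 4.63-fold, by 2.21 on the log2 scale (SE 0.24, adjusted p = 0.0191), to 4.61 times background, a held fall. IGF2, the fetal growth factor, read 1184, 1079 and 814 at E50 and 299, 284 and 321 at E60 on its brightest probe set and fell by 1.75 (SE 0.27, adjusted p = 0.0297). Its other 2 probe sets above background on all arrays gave -2.01 (adjusted p = 0.0521) and -1.98 (adjusted p = 0.0756). Further, 2 dimmer ones, above background on 5 and 3 arrays, gave 0.51 (adjusted p = 0.835) and 1.53 (adjusted p = 0.285). IGFBP2 and HTRA1, the other well-measured members, had changes of -0.48 (adjusted p = 0.321) and 0.21 (adjusted p = 0.622).

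The transcription factors of tooth development did not pass the test. Of 16 measured, 9 were well measured and 0 were called in either direction, with changes between -1.03 and 0.59 and a median of 0.20. The largest was that of MSX1, the homeobox factor that keeps dental mesenchyme responsive to BMP. It read 3102, 2814 and 2818 at E50 and 1407, 1357 and 1510.0 at E60, with no overlap between the stages, and the change of -1.03 (SE 0.23, adjusted p = 0.0547) did not pass. LEF1, a nuclear partner of beta-catenin, changed by 0.37 (adjusted p = 0.390), ID1, a target of BMP signalling, by 0.59 (adjusted p = 0.176), and DLX5 by -0.18 (adjusted p = 0.645).

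Of the BMP list, the type I receptor BMPR1A rose. It read 786, 785 and 776 at E50 and 1783, 1740.2 and 1897 at E60. The 3 arrays of each stage agreed closely and the stages did not overlap, and BMPR1A rose 2.31-fold, by 1.21 on the log2 scale (SE 0.22, adjusted p = 0.0412), which was not held. The ligand BMP4 read 749, 820.5 and 770.3 at E50 and 882, 1292 and 1083 at E60, a change of 0.46 (SE 0.26, adjusted p = 0.314). The study found its transcripts in both epithelium and mesenchyme at E50. SMAD1, which carries the BMP signal to the nucleus, and the decoy receptor BAMBI had changes of 0.61 (adjusted p = 0.173) and 0.68 (adjusted p = 0.145). Of 7 well-measured members 1 (14.3%) rose and 0 fell, with a median of 0.59, where 3.65% of all well-measured genes rose.

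In the TGF-β and activin list ENG, described above, fell (11.1% of the 9 well-measured members) and 0 members rose. Of all well-measured genes 9.81% fell. TGFB2, a ligand for which the study made PCR primers, read 632, 566 and 396 at E50 and 1756, 1541 and 1680.3 at E60 on its brightest probe set, with all E60 arrays above all E50 arrays. That probe set rose by 1.67 (SE 0.29, adjusted p = 0.0370), but a further one above background on all arrays gave -0.19 (adjusted p = 0.726), so TGFB2 was not well measured. TGFBR1, the type I receptor, read 1340.1, 1501 and 578 at E50 and 3626, 4072 and 3541 at E60, with replicate 3 of E50 lowest, and had a change of 1.83 (SE 0.44, adjusted p = 0.0644). TGFB1 had -1.48 (adjusted p = 0.0718), INHBA, the activin subunit of dental mesenchyme, -0.12 (adjusted p = 0.846), and its antagonist FST 0.24 (adjusted p = 0.550). Of 10 well-measured WNT genes 0 were called in either direction, with a median of 0.34. The largest change was that of CTBP2, a corepressor, at 1.21 (adjusted p = 0.0595), with 1.30 for its other probe set (adjusted p = 0.0485), and the receptor FZD5 had 0.75 (adjusted p = 0.130). The 4 WNT inhibitors ranged from -0.65 for DKK1 to 0.75 for APCDD1, and 0 were called. DKK2, which was not well measured and for which the study also made primers, had 0.13 (adjusted p = 0.820). TGFB2 and DKK2 were added after their values were seen.

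In the Notch list APH1A, a subunit of the protease that releases the Notch intracellular domain, read 2918, 3568 and 2646 at E50 and 804, 943 and 1020.3 at E60 and fell by 1.72 (SE 0.26, adjusted p = 0.0297). LFNG, a glycosyltransferase that modifies Notch, had a change of -0.96 (SE 0.24, adjusted p = 0.0710) with 2 probe sets of the same direction, and the ligand JAG1 -0.38 (adjusted p = 0.389). The target HES1 had -0.30 (adjusted p = 0.501). Among 12 well-measured FGF and MAP kinase genes 1 (8.33%) fell, near the 9.81% of all well-measured genes. RPS6KA3, a kinase downstream of ERK, fell by 1.65 (SE 0.29, adjusted p = 0.0380), with an E60 signal of 3.76 times background. The feedback inhibitor DUSP6 and the receptor FGFR1 had changes of 0.11 (adjusted p = 0.818) and -0.09 (adjusted p = 0.877). IKBKG and NFKBIA, the well-measured genes of the EDA and NF-κB list, had -1.38 (adjusted p = 0.0528) and -0.74 (adjusted p = 0.139). FKBP8 and SUFU, antagonists in the hedgehog pathway, had -1.43 (adjusted p = 0.0529) and 0.02 (adjusted p = 0.978).

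Of the other genes that the study followed in tissue, CTNNB1, the beta-catenin gene, read 18186, 20075 and 18014 at E50 and 20161, 23216 and 20270.4 at E60 on its brightest probe set and had a change of 0.18 (adjusted p = 0.660), while its other 3 probe sets above background on all arrays gave -0.21, -0.07 and -0.13. GLI1, a hedgehog target, read 692, 445 and 152 at E50 and 457, 637 and 307 at E60, and the stages overlapped. TCF4 was called lower, at -2.70 (SE 0.45, adjusted p = 0.0347), but with E60 signals of 45.0, 48.8 and 38.2 it lay above background on 1 E60 array. The study describes its TCF4 as an effector of WNT signalling, and whether this symbol names the same gene was not checked. TCF7L2 of the WNT list, chosen after its values were seen and above background on 2 E50 arrays, had -1.81 (adjusted p = 0.0501). WNT10B read 113, 111 and 321 at E50 and 2.19, 11.8 and 35.2 at E60, and its change of -4.04 did not pass (adjusted p = 0.0867). For TCF4 and WNT10B the comparison rests on signals at background. No probe set carried the symbol SHH, SOX2, OSR2, ITGB6 or LGR6. None of the 7 measured enamel organ and ameloblast genes was well measured, and the summed signal of AMELX, AMBN, ENAM, MMP20 and the 3 others was 1148, 941 and 769 at E50 and 312, 328 and 277 at E60. At E50 none of these genes lay above background on more than 1 array. On E50 replicate 1 AMELX, CLDN3 and TUFT1 read 379, 377 and 282, above the background of 248. On replicate 2 ENAM, AMBN and MMP20 read 588, 142 and 120, above the background of 77.7. On replicate 3 the highest, MMP20 at 279, lay below the background of 379. The E50 sums thus rest largely on signals that did not repeat between arrays or lay below background. Their difference from E60 gives no measure of expression.

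**Figure D5:**
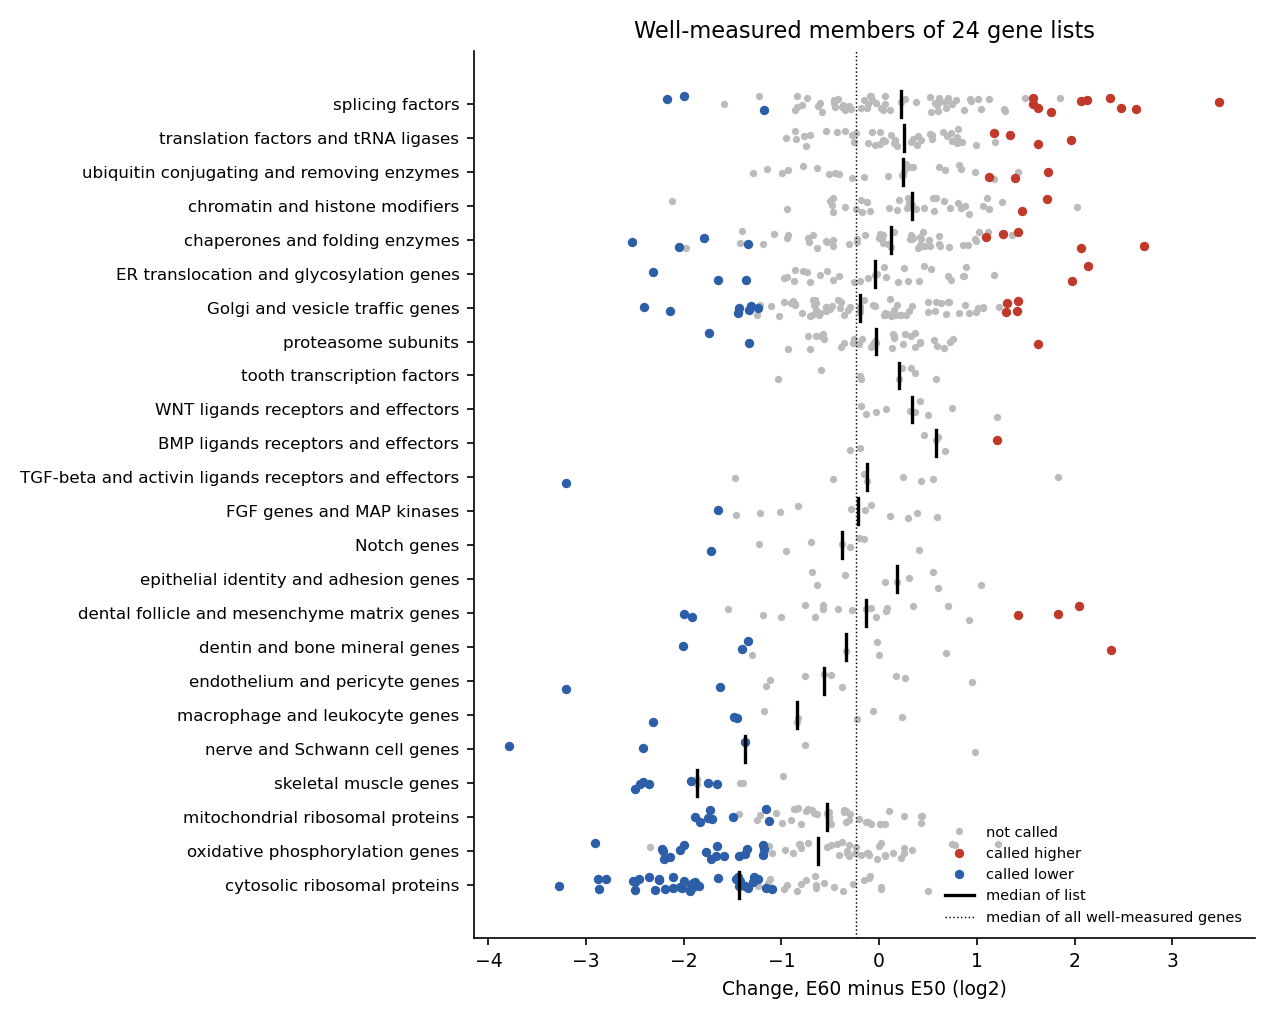
Log2 change from E50 to E60 of the well-measured members of gene lists, 1 point per gene, with red and blue for genes called higher and lower, grey for genes not called, black bars for the median of each list and a dotted line for the median of all well-measured genes, -0.24. The list medians run from -1.87 for skeletal muscle and -1.43 for cytosolic ribosomal proteins to 0.59 for BMP genes, and tooth transcription factors hold no called gene.

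Some large changes belong to probe sets whose gene name is doubtful. AMY2, a pancreatic and salivary amylase, read 11432, 10039 and 15068 at E50 and 47697, 48499.5 and 48437 at E60 on 1 probe set and rose by 2.01 (SE 0.27, adjusted p = 0.0251), a held rise. Its other 2 probe sets were not above background on all arrays and gave 1.94 (adjusted p = 0.334) and 1.69 (adjusted p = 0.356). The other genes of oral mucosa and glands did not share such signals, and KRT10 was the only other well-measured member, with -0.55 (adjusted p = 0.215). ZC3H10 fell by 2.89 (SE 0.24, adjusted p = 0.0152) on a probe set that read 467448, 392740 and 472469 at E50 and 58913, 57454 and 63013 at E60, while its other well-measured probe set gave -0.18 (adjusted p = 0.800). Over all genes, 66 called rises were below background on every E50 array and 47 called falls on every E60 array, and 12 called genes had probe sets that disagreed. These were not counted as well measured.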

How the data were processed

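Affymetrix Porcine Genome Arrays of pooled germ RNA were used, 3 of E50 and 3 of E60. The deposited values are intensities that the authors computed by MAS 5.0 within GeneSpring 11.0, on a linear scale with a trimmed mean near 500.1 on every array (2% of probe sets trimmed at each end). Detection calls were not used here. Arrays have no read depth, so their number and signal over background limit the precision. Of 24123 probe sets, 124 AFFX controls were set aside, which left 23999. Of these, 10069 had 1 gene symbol in the platform annotation, 198 had several and 13732 had none, and the Entrez number of 9961 was found in the RefSeq gene table, which changed no symbol.

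Intensities were floored at 1 and transformed to log2. For E60 minus E50, limma 3.58.1 under R 4.3.3 was run on the 6 arrays (lmFit, then eBayes), p-values were adjusted after Benjamini and Hochberg across the 23999 probe sets, and a gene was called at an adjusted p below 0.05. The E70 arrays were left out of the main comparison because the E50 arrays varied more than the others, with a median SD per probe set of 1.03 at E50 and 0.264 at E60. Pearson's r between arrays, across probe sets, was 0.605 to 0.683 within E50, 0.902 to 0.914 within E60 and 0.605 to 0.704 between the stages. A gene's value is that of its brightest probe set by mean log2 signal. Controls were compared by exact permutation over the 20 splits of 3 against 3 arrays. The fit was tested on simulated data. Python 3.11.15 with NumPy 2.4.6, pandas 2.3.3 and Matplotlib 3.10.9 made the tables and figures.

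Genes named were the 15 largest rises and 15 largest falls among called well-measured genes without overlap of the arrays, up to 8 genes each way with several probe sets all called, up to 4 called well-measured members of each of 50 gene lists each way, the well-measured tooth transcription factor and signalling genes, and the genes the study followed further. A few of these are given in counts only, and genes outside this rule are marked in the text. Genes, lists and tests were chosen with earlier results of these data known. A list is described by its counts and median, with no test of the list, and the shares and median of all well-measured genes are given with the first counts and beside some lists. Stages follow the sample labels, although a supplementary list of the study heads the arrays of the earliest stage with a later day.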

Additional observations from a re-analysis of the deposited data

How the results depend on the processing

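The counts of calls moved with most settings. With all 9 arrays 1884 probe sets were called higher and 2552 lower, and 315 and 735 well-measured genes. With an intensity trend in the prior variance they were 1751 and 2172 probe sets and 489 and 812 genes, and with a filter on background before the fit 1558 probe sets were higher and 302 and 716 genes higher and lower. Median centring gave 2378 and 433 probe sets and 508 and 66 genes, and quantile normalization 408 and 401 probe sets and 48 and 117 genes. A floor of 16 and centring on the 75th percentile kept the probe set counts within 1.5 times. With the replicate number as a block (replicate block) 0 probe sets and 0 well-measured genes were called in either direction by limma, with 5538 probe sets at an unadjusted p under 0.05. Same-numbered arrays correlated by 0.007, 0.002 and 0.020 after their stage means were removed. With few arrays at each stage and a wide spread at E50, this cannot show whether same-numbered arrays share a batch. Leaving out 1 array at a time gave 0 to 1724 probe sets higher and 0 to 1879 lower, and 0 to 206 and 0 to 436 well-measured genes. The count was 0 without any E60 array and highest without E50 replicate 3. Of the 150 named genes that were called, 0 changed direction except under quantile normalization, where RPLP0 had 0.50 and SPARC 0.58 and a further 78 no longer passed. With median centring 51 no longer passed, with 75th percentile centring 23, with 9 arrays 6, without E50 replicate 1, 2 or 3 34, 39 and 3, and without any E60 array all 150. The medians of 49 gene lists, over their well-measured members, changed sign in 29 lists under median centring, 8 under quantile normalization and 2 under 75th percentile centring. The change by protein length was not run, since no protein table was at hand.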
